A study of Mus musculus with 24 samples.

Results

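The 38 genes described here encode the enzymes that remodel extracellular matrix and their natural inhibitors: 16 matrix metalloproteases (Mmp), 13 secreted proteases with thrombospondin motifs (Adamts), 4 membrane-anchored Adam proteases and 5 inhibitors (Timp1, Timp2, Timp3, Timp4 and Reck). They were measured in endothelial cells (ECs) sorted from aorta and leg muscle of mice, and each gene was read from the brightest array probe that its accession led to. Probes were found for 36 of the 38 genes, out of 18539 gene symbols on the array, and Adamts6 and Adam10 were not analysed here. Matrix metalloproteases are zinc enzymes that are made as inactive precursors, cleave collagens, gelatin, laminin and other matrix proteins, and are held in check by the TIMPs. The ADAMTS enzymes include aggrecanases that cut large proteoglycans such as versican, and others that trim procollagens. In vessels, ECs use these enzymes in sprouting, basement membrane turnover and shedding of surface proteins.

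The 8 groups were the combinations of tissue (aortic or skeletal muscle endothelium), genotype and diet, each with 3 arrays. Wild-type (WT) mice were C57BL/6, and knockout (KO) mice were Galectin-3(-/-), homozygous for a germline deletion in Lgals3 that affects every cell type. All mice were male, started the regimen at 8 weeks of age and received either a high-fat diet (HFD, 60% of calories from fat) or chow (12%) for 8 weeks. Every array held RNA of about 10000 live CD105+/CD45- cells sorted from the pooled tissue of 3 to 4 mice, so that n counts 3 separate experiments and not animals. Levels below are log2 of the scaled intensity, where 0 is the 75th percentile of that array, and levels of different genes are not comparable because they come from different probes. A difference of 1 on this scale is a doubling.

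Some properties of the arrays bear on all that follows. The 12 endothelial markers (among them Pecam1, Cdh5, Kdr and Vwf) were above background on all 24 arrays, with a summed level of 7.13 to 8.74 in aorta and 8.73 to 9.31 in muscle. The 11 fibroblast markers (among them Col1a1, Col3a1, Pdgfra and Dcn) were also all above background on every aorta array. In muscle, 10 or 11 of them were above background on each array. Their summed level was 8.42 to 9.68 in aorta and 4.61 to 7.85 in muscle. The term ECs below therefore names the sorted samples as a whole. In such sorted bulk RNA, more cells of a type and more RNA per cell cannot be told apart. Lgals3 itself was above background on all 24 arrays and higher in KO than in WT in 11 of 12 pairs, and whether its probe lies inside the deleted part is not known here, so it does not check the labels. The strains could be told apart in experiments 2 and 3 at 34 probes, which gave a scale where 0 is WT and 1 is KO. Probes and scale came from experiments 2 and 3, so the positions of those arrays near their labels check nothing. In experiment 1, the chow arrays lay close to their labels (0.02 and 0.08 in WT, 1.02 and 0.91 in KO). The HFD arrays of experiment 1 took intermediate positions of 0.20 to 0.45 in both strains. Most strain-specific values are therefore also given without experiment 1.

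The first question was which of these enzymes and inhibitors the sorted cells carried. Of the 36 genes, 28 passed the intensity filter in aorta and 25 in muscle, which required a signal well above background on all 3 arrays of at least 1 group. Another 7 failed it in both tissues: the collagenases Mmp8 and Mmp13, the stromelysin Mmp10, the macrophage elastase Mmp12, Mmp28, Adam12 and Adamts13, the protease that trims von Willebrand factor. Mmp12 was above background on 0 of 12 aorta and 1 of 12 muscle arrays, and Adamts13 on none of the 24. Mmp9, Mmp16, Mmp19 and Adamts3 passed in aorta but not in muscle, and Adamts12 in muscle but not in aorta.

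The comparison of aorta with muscle gave the largest differences, and it divided the family. Each slide held arrays of 1 tissue only, so in this comparison tissue and slide cannot be told apart. Of 29 genes tested over all 24 arrays, 16 were higher in aorta and 8 were higher in muscle (limma, adjusted p under 0.05), and these 24 compare with 57.1% of all probes called in either direction, 17.9% higher in aorta and 39.3% higher in muscle. The median difference of the 29 genes, aorta minus muscle, was 0.70, against -0.27 over all probes. The array's 75th percentile sets that zero, and the submitters' own scaling differs from it mainly by a constant shift between the tissues. With the submitters' own scaling the median of all probes was -0.01 and the genes divided into 18 higher in aorta and 5 higher in muscle, since Adam17, Timp3 and Adamts7 no longer passed while Adamts4 (0.88, adjusted p = 0.015) and Adamts10 (0.75, adjusted p = 0.0277) did. The 12 aorta arrays and the 12 muscle arrays did not overlap for 8 of the 29 genes (5.64% of all probes), all 8 higher in aorta, and 16 of the 29 differed the same way in every pair of arrays (22.4% of all probes). Mmp16, which is among the 8, Mmp19 and Adamts3 passed the filter only through aorta, and Adamts12 only through muscle. For these genes the filter favoured the direction that was called. The main fit treated the 12 pairs as independent, although arrays on a slide correlated at 0.28 in a fit without the replicate block. With the slide as a random block in that fit, 17 of the 24 called genes passed.

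Mmp3, a stromelysin that cleaves proteoglycans and activates other precursors, showed the largest difference. Its level ran from 4.64 through a median of 5.61 to 6.40 on the 12 aorta arrays, and from -7.40 through -2.32 to 1.00 in muscle, where 10 of 12 arrays were above background. All aorta arrays were above all muscle arrays, and the muscle arrays spread far more widely. The difference was 8.26 ± 0.69 (log2, SE, 12 pairs, adjusted p = 7.73e-07), and with the dim arrays raised to the lowest signal counted as above background it was at least 277-fold. Mmp23, a membrane-anchored member, ran from 3.61 through 5.03 to 5.73 in aorta and from -3.91 through -2.49 to 0.76 in muscle, a difference of 7.20 ± 0.36 (adjusted p = 1.62e-08). Adamts2, which removes the amino-terminal propeptide of procollagens, ran from 3.45 through 4.74 to 5.39 in aorta and from -3.19 through -1.54 to 0.77 in muscle, a difference of 6.16 ± 0.34 (adjusted p = 2.94e-08). A second Adamts2 probe gave a smaller difference, 3.09 (limma, adjusted p = 8.45e-07). On their brightest probes, neither Mmp23 nor Adamts2 overlapped between the tissues.

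Some of the genes high in aorta were near the background in muscle. Mmp16, a membrane-type enzyme, was above background on 12 of 12 aorta and 5 of 12 muscle arrays, with levels of -3.59, 0.04 and 0.71 (lowest, median, highest) in aorta and -9.25, -6.83 and -4.42 in muscle. It was at least 33.4-fold higher in aorta (adjusted p = 1.01e-06). Mmp19 was above background on 6 of 12 muscle arrays, ran from -4.21 through -0.26 to 0.60 in aorta and from -7.26 through -5.74 to -3.27 in muscle, and was at least 24.9-fold higher in aorta (adjusted p = 2.18e-07). Its aorta and muscle arrays overlapped through a single low aorta array, that of WT on chow in experiment 2. Adamts3, the other procollagen propeptidase, was above background on 5 muscle arrays and at least 10.7-fold higher in aorta (adjusted p = 5.3e-06). Mmp16, Mmp19 and Adamts3 passed the filter only through aorta, where they were high, so that a lower value in muscle was favoured.

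Among the inhibitors the tissues differed in opposite directions. Timp1, an inducible secreted inhibitor, ran from 3.77 through 4.94 to 6.23 in aorta and from -1.84 through -0.42 to 1.24 in muscle, a difference of 5.46 ± 0.24 (adjusted p = 9.15e-09). Its second probe gave 6.18. Reck, a membrane-anchored inhibitor, was higher in aorta by 3.28 ± 0.14 (adjusted p = 4.5e-09) and Timp2, which also helps Mmp14 to activate the Mmp2 precursor, by 1.66 ± 0.14 (adjusted p = 8.84e-07), with no overlap of arrays for either. Timp4 went the other way, at 1.47, 3.58 and 5.49 (lowest, median, highest) in aorta and 5.34, 6.14 and 7.03 in muscle, a difference of -2.70 ± 0.30 (adjusted p = 8.4e-06). Only the highest aorta array of Timp4, KO on chow in experiment 1, reached the muscle range. Timp3, the inhibitor that binds to matrix, differed by -0.42 ± 0.09 (adjusted p = 0.00165), and by -0.15 with the submitters' scaling, where it did not pass.

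Of the remaining proteases, Mmp2 (3.62 ± 0.29, adjusted p = 6.13e-07), Adamts5 (2.02 ± 0.22, adjusted p = 8.58e-06), Adamts15 (1.82 ± 0.33, adjusted p = 0.00049) and Mmp14 (1.81 ± 0.28, adjusted p = 0.000152) were the next higher in aorta. Adamts8, Mmp11 and Adamts1 followed with differences of 1.35, 0.63 and 0.54. A second Adamts1 probe gave 0.12 (limma, adjusted p = 0.774). Mmp2 is the gelatinase that Mmp14 activates at the cell surface, and Adamts5 and Adamts15 belong to the proteoglycan-cleaving group. The proteases higher in muscle were Mmp15, a membrane-type enzyme (-2.33 ± 0.23, adjusted p = 3.19e-06, lower in aorta in 12 of 12 pairs), Adamts9 (-1.42 ± 0.26, adjusted p = 0.000649, with 1 outlier spot left out so that n is 11 pairs), Adamts12 (-0.97, and 0.09 at its other probe), Adam15 (-0.84), Adam17 (-0.42) and Adamts7 (-0.36). Adam17 is the sheddase that frees TNF from its membrane anchor. Mmp9, Mmp17, Mmp24, Adamts4 and Adamts10 did not pass. Nor did the second probes of Adamts9 (-0.91, limma, adjusted p = 0.188) and Adamts7 (-0.22, adjusted p = 0.266).

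**Figure D1:**
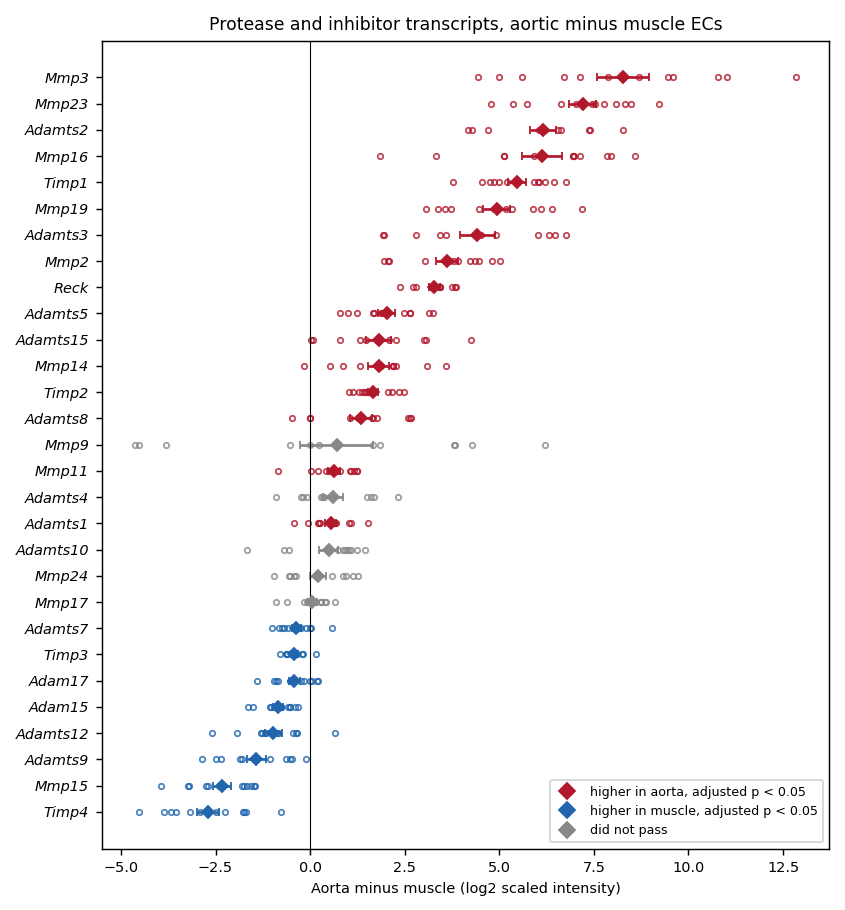
Difference in level between aortic and muscle ECs for the 29 genes tested, on a log2 scale. Open circles are the pairs of arrays of the same strain, diet and experiment (12 a gene, 11 for Adamts9), diamonds are the fitted means with SE bars, and the colours show which genes passed. Mmp3 at 8.26 and Timp4 at -2.70 mark the ends of the range.

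Fibroblast markers moved with this comparison. All 11 were higher in aorta (median difference 4.65, between 1.79 and 7.45), whereas 11 of the 12 endothelial markers were lower in aorta (median of the 12, -1.06). The 8 skeletal muscle fibre markers were lower in aorta as well, with a summed level of 0.49 to 2.88 there and 4.37 to 7.34 in muscle. Of 8 adipocyte markers, 5 were higher in aorta and 2 in muscle (median 1.79), and 4 of 6 pericyte markers were higher in muscle (median -0.92). Among 8 smooth muscle markers, 1 was higher in aorta and 4 were higher in muscle (median -0.47). Within muscle, the levels of Mmp3 and Mmp2 were high on the arrays with a high fibroblast level. The muscle HFD arrays of experiment 1 had a fibroblast level of 7.85 in both strains and the highest Mmp2 levels in muscle, 2.99 in WT and 3.07 in KO, while the chow arrays of experiment 2 had fibroblast levels of 4.87 and 4.61 and Mmp2 levels of -0.01 and -0.24. The part of these other cells' RNA in the tissue differences was not tested.

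**Figure D2:**
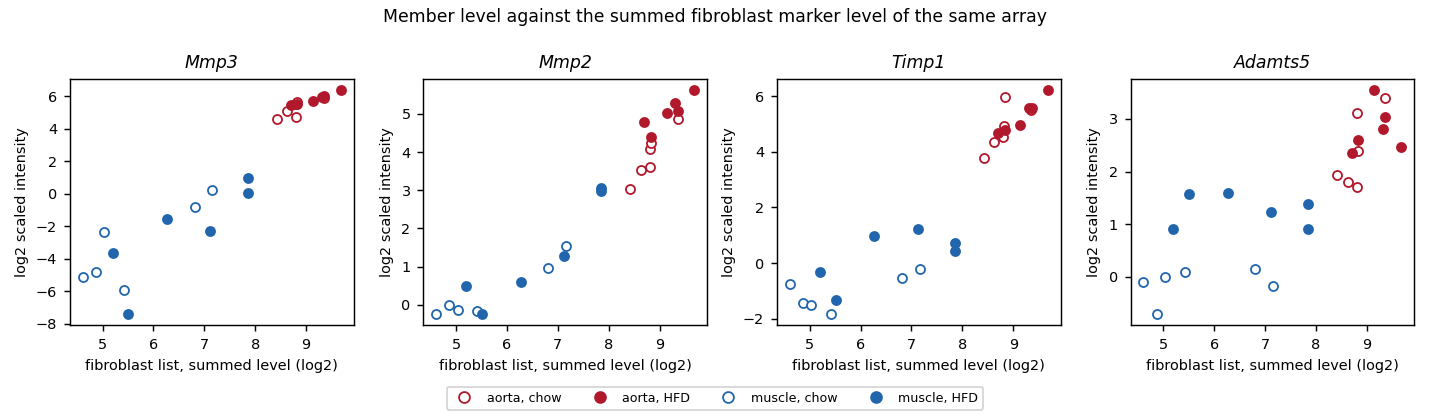
Level of Mmp3, Mmp2, Timp1 and Adamts5 (vertical axes, log2) against the summed level of the 11 fibroblast markers on the same array (horizontal axes, log2), 1 point for each of the 24 arrays, red for aorta and blue for muscle, open for chow and filled for HFD. In muscle, Mmp2 lies high where the fibroblast level is high. The 6 muscle HFD arrays of Adamts5, from 0.90 to 1.60, lie above the 6 chow arrays, from -0.71 to 0.14. The fibroblast level runs from 4.61 to 7.16 on the muscle chow arrays and from 5.20 to 7.85 on the muscle HFD arrays.

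The stretches of 250 bases before the start of transcription are shown for a protease and an inhibitor that were higher in aorta (Mmp3 and Timp1) and for a protease and an inhibitor that were higher in muscle (Mmp15 and Timp4), because these pairs mark the opposite ends of the tissue comparison. The sequences are from RefSeq (build GRCm38.p6), 5′ to 3′ along the gene. Capitals mark matches, on either strand, to TGANTCA (the AP-1 element), GGGCGG (the GC box, written CCGCCC on the other strand) and TATAAA (the TATA box). None of these matches overlap one another.
Mmp3, chr9:7445572-7445821, plus strand: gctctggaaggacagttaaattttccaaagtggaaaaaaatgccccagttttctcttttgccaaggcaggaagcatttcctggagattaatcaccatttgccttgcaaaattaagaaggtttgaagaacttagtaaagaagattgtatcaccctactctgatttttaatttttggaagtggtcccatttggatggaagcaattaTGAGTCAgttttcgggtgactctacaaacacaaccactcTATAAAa
Timp1, chrX:20869916-20870165, plus strand: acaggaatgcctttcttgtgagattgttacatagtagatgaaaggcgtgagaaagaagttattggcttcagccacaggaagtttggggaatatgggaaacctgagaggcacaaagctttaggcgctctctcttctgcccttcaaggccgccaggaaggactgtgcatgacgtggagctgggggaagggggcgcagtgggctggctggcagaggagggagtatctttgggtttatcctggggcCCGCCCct
Mmp15, chr8:95352046-95352295, plus strand: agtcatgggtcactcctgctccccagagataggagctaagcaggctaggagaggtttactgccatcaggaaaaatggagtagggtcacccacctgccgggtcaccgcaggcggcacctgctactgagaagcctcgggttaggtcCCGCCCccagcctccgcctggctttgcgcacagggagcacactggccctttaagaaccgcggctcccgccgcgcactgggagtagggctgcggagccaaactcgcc
Timp4, chr6:115252206-115252455, minus strand: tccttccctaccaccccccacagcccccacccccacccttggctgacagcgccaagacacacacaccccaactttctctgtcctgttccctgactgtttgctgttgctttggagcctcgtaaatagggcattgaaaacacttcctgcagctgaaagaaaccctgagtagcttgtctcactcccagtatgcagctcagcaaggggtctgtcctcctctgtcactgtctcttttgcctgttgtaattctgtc
The Mmp3 window held TGAGTCA at 46 to 40 bases before the start and TATAAA at 7 to 2 bases before it. The Timp1 and Mmp15 windows held 1 GC box each, on the opposite strand, and the Timp4 window held none of the 3 motifs. Over all 32851 promoter windows of this length, 6.75% held TGANTCA, 32.7% held GGGCGG and 12.4% held TATAAA. Of the 25 genes of the family with a window, TGANTCA was in 4 (Mmp3, Mmp10, Mmp12 and Mmp13), TATAAA in 4 (Mmp3, Mmp10, Mmp13 and Adamts1) and GGGCGG in 16. These are matches of letters only, and neither their use as elements nor the exact place of the start was tested. The table holds no window for 13 of the genes, among them Mmp2, Adamts5, Adamts7 and Adamts8.

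The second question was how the diet changed these genes. Over both tissues and strains, 3 of 29 genes rose with HFD and none fell (2.79% of all probes were called in either direction): Adamts5, Mmp2 and Adamts7. The differences of 25 of the 29 genes were above 0, with a median of 0.33 against 0 over all probes, and 14 of the 29 had an unadjusted p under 0.05 (22.5% of all probes). Timp1 (0.90 ± 0.21, adjusted p = 0.0525) and Adamts8 (2.25 ± 0.54, adjusted p = 0.0528) lay just outside the threshold, and a second Timp1 probe just inside it (1.06, adjusted p = 0.0481). Calls in this comparison depended on the full set of arrays: leaving out any of the 3 experiments left 0 calls, and the estimates of the 3 genes then ranged from 0.44 to 1.36.

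Adamts5, an aggrecanase that cleaves versican and aggrecan, carried the clearest change, which was called in muscle and not in aorta. On chow the muscle arrays of experiments 1 to 3 read 0.14, -0.71 and -0.01 for WT and -0.18, -0.10 and 0.10 for KO. On HFD they read 1.39, 0.91 and 1.60 for WT and 0.90, 1.24 and 1.58 for KO. All 6 HFD arrays were above all 6 chow arrays. In muscle it rose by 1.40 ± 0.15 (mean of both strains, adjusted p = 0.0358, higher in 6 of 6 pairs), the only one of 25 genes called there (0.288% of all probes), and its second probe gave 1.48 (adjusted p = 0.116). With any 1 experiment left out the difference was 1.33 to 1.51, and it no longer passed. In aorta the levels on chow were 3.39, 1.94 and 3.12 in WT and 1.70, 2.39 and 1.80 in KO, and on HFD 3.04, 2.81 and 2.59 in WT and 3.55, 2.47 and 2.36 in KO. The diets overlapped in aorta, with a difference of 0.41 ± 0.31 (adjusted p = 0.56), and the difference between the responses, aorta minus muscle, was -0.99 ± 0.35 (adjusted p = 0.42). Over both tissues Adamts5 rose by 0.90 ± 0.18 (adjusted p = 0.0318, higher in 10 of 12 pairs). Its second probe gave 0.87 there and did not pass (limma, adjusted p = 0.102).

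Mmp2 rose by 1.09 ± 0.23 over both tissues (adjusted p = 0.0383, higher in 11 of 12 pairs). The aorta arrays on chow read 4.88, 3.03 and 4.09 for WT and 3.60, 4.23 and 3.53 for KO, and on HFD 5.07, 5.29 and 4.40 in WT and 5.03, 5.63 and 4.78 in KO. Each HFD array was above the chow array of its own strain and experiment, although the ranges of the diets overlapped. In muscle it was 0.97, -0.01 and -0.14 on chow in WT and 1.53, -0.24 and -0.16 in KO, and on HFD 2.99, 0.49 and 0.60 in WT and 3.07, 1.28 and -0.25 in KO. By tissue the differences were 1.14 ± 0.31 in aorta (adjusted p = 0.22) and 1.04 ± 0.31 in muscle (adjusted p = 0.19).

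Adamts7, which cleaves cartilage oligomeric matrix protein and is known for roles in the arterial wall, rose by 0.49 ± 0.11 over both tissues (adjusted p = 0.0442, higher in 11 of 12 pairs). In aorta its level was -0.06, -0.43 and -0.41 on chow in WT and -0.24, -0.16 and -0.06 in KO, against 0.31, 0.24 and 0.53 on HFD in WT and 0.49, 0.61 and 0.83 in KO. The 6 HFD arrays were all above the 6 chow arrays there. In muscle the levels were 0.18, 0.59 and 0.40 on chow in WT and 0.44, 0.58 and 0.04 in KO, and 0.90, 0.54 and 0.50 on HFD in WT and 0.95, 0.60 and 0.26 in KO, with overlap. The difference was 0.73 ± 0.17 in aorta (adjusted p = 0.19) and 0.25 ± 0.17 in muscle (adjusted p = 0.49), and its second probe gave 0.51 over both tissues (adjusted p = 0.077).

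**Figure D3:**
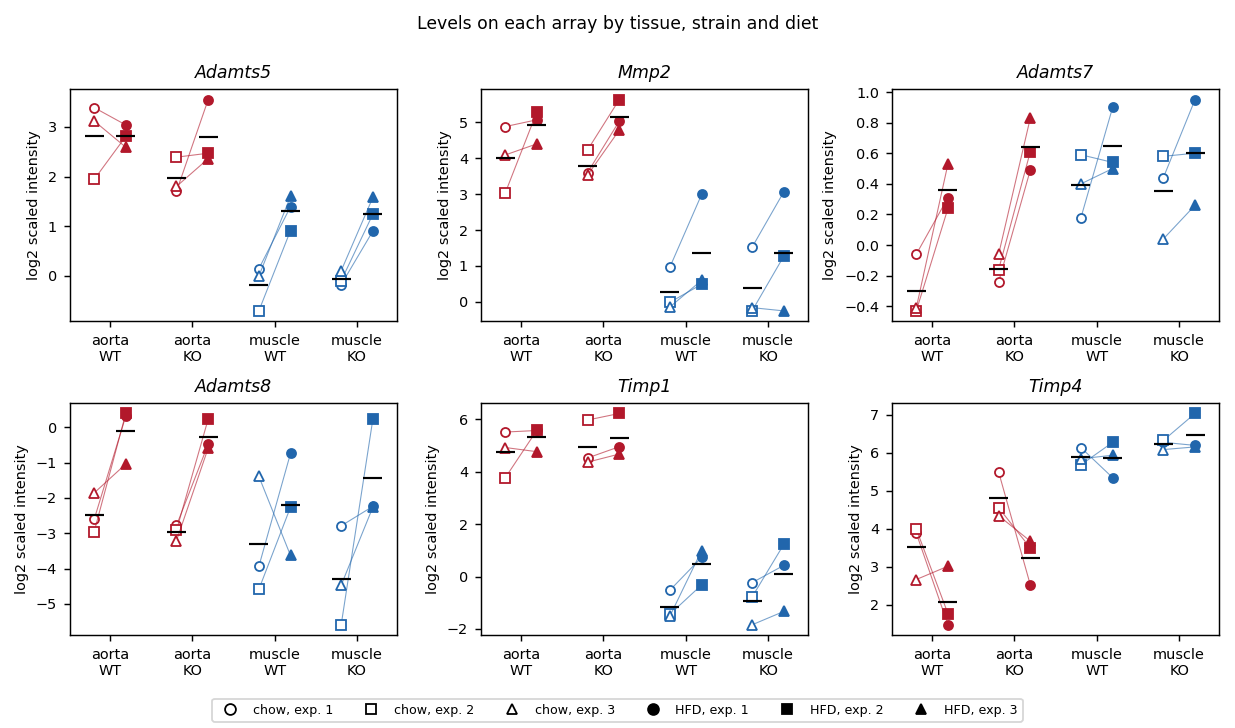
Level on every array (log2 scaled intensity) of the 3 genes that rose with HFD over both tissues (Adamts5, Mmp2, Adamts7) and of Adamts8, Timp1 and Timp4. Open symbols are chow, filled symbols HFD, the symbol shape is the experiment, lines join arrays of the same strain and experiment and black bars are means of 3 arrays. The HFD arrays of Adamts5 in muscle and of Adamts7 and Adamts8 in aorta lie wholly above the chow arrays.

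In aorta alone, 0 of 28 genes passed in limma (0.0309% of all probes did), and 9 of 28 had an unadjusted p under 0.05 against 15.1% of all probes. The largest difference was that of Adamts8, which inhibits endothelial growth in assays besides cleaving proteoglycans. Its aorta levels were -2.61, -2.96 and -1.86 on chow in WT and -2.78, -2.92 and -3.21 in KO, against 0.32, 0.39 and -1.04 on HFD in WT and -0.48, 0.23 and -0.59 in KO. All 6 HFD arrays were above all 6 chow arrays, which in aorta held for Adamts8 and Adamts7 among 27 genes with complete data and for 0.615% of all probes. The difference was 2.53 ± 0.36 (adjusted p = 0.087), its second probe gave 2.26 (adjusted p = 0.0808), and it passed under 4 of the alternative settings. In muscle Adamts8 was -3.94, -4.59 and -1.39 on chow in WT and -2.79, -5.59 and -4.47 in KO, and -0.74, -2.26 and -3.63 on HFD in WT and -2.24, 0.23 and -2.26 in KO. The arrays of the diets overlapped in muscle, with a difference of 1.98 ± 0.89 (adjusted p = 0.33).

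Timp4 had the lowest difference in aorta. Its levels were 3.88, 3.99 and 2.66 on chow in WT and 5.49, 4.55 and 4.34 in KO, and 1.47, 1.76 and 3.01 on HFD in WT and 2.52, 3.49 and 3.67 in KO. It was lower on HFD in 5 of 6 pairs, with a difference of -1.50 ± 0.47 (adjusted p = 0.25), and in muscle the difference was 0.10 ± 0.22. The adipocyte markers were also lower in aorta on HFD: 8 of 8 tested were below 0 with a median of -3.62, and their summed level was 7.54 to 8.82 on the 6 chow arrays and 6.30 to 7.20 on the 6 HFD arrays. Their part in the Timp4 difference was not tested.

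In muscle, Mmp15 and Timp1 lay next to Adamts5. Mmp15 was 0.61, 0.22 and 0.88 on chow in WT and 0.73, 0.84 and 0.92 in KO, and 1.73, 1.69 and 1.92 on HFD in WT and 1.46, 1.77 and 1.80 in KO. Its HFD arrays were all above its chow arrays, as were those of Adam17 and Adamts5, 3 of 25 genes against 1.00% of all probes, and the difference was 1.03 ± 0.14 (adjusted p = 0.0585). Timp1 was -0.52, -1.44 and -1.51 on chow in WT and -0.23, -0.77 and -1.84 in KO, and 0.73, -0.32 and 0.99 on HFD in WT and 0.43, 1.24 and -1.33 in KO. It was higher in 6 of 6 pairs, although the ranges of the diets overlapped, and the difference was 1.34 ± 0.28 (adjusted p = 0.117). Adamts9 (0.84 ± 0.18, adjusted p = 0.125) and Adam17 (0.61 ± 0.15, adjusted p = 0.147) were higher on HFD in 6 of 6 muscle pairs as well, although a second Adamts9 probe gave 0.10 (adjusted p = 0.948). Of the 25 genes, 12 had an unadjusted p under 0.05 in muscle, against 16.4% of all probes.

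Within a single strain, no contrast of the diets gave a called member. In limma 0 of 28 genes passed in aorta in WT and 0 of 28 in KO, and 0 of 25 passed in muscle in WT and 0 of 25 in KO (0%, 0%, 0% and 0.00389% of all probes). With an unadjusted p under 0.05 there were 4, 5, 8 and 4 genes, in that order, against 5.77%, 11.3%, 12.1% and 8.49% of all probes. The difference ran the same way in every experiment for 10 of 28, 18 of 28, 12 of 25 and 10 of 25 genes, against 26.9%, 33.3%, 36.7% and 28.4% of all probes. Among these, the largest differences were those of Mmp9, Adamts8, Adamts15 and Mmp15 in aorta in WT, of Adamts8, Timp4, Mmp16 and Mmp2 in aorta in KO, of Timp1, Adamts5, Mmp3 and Mmp15 in muscle in WT and of Adamts8, Adamts5, Adamts2 and Timp1 in muscle in KO.

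Mmp9, the other gelatinase, was close to background. In aorta in WT it was -5.20, -2.91 and -5.57 on chow, with 3 of 3 arrays above background, and -8.45, -4.33 and -8.35 on HFD, with 1 of 3. It passed the filter in aorta only through WT on chow, the group where it was highest, so that a lower value in the others was favoured. The difference was -2.48 ± 0.98 (adjusted p = 0.84), -2.10 without experiment 1, -1.19 with normexp background correction and -1.16 with the dim arrays raised to the lowest signal counted as above background, so its size is not fixed by these arrays. Adamts15 in aorta in WT was 0.32, -2.04 and -0.37 on chow and 1.18, 0.83 and 0.35 on HFD, a difference of 1.48 ± 0.59 (adjusted p = 0.84), or 1.79 without experiment 1 and 0.79 without experiment 2, which held the lowest chow array. Mmp15 in aorta in WT was -1.80, -1.53 and -3.05 on chow and -1.47, -1.05 and 0.35 on HFD, 1.41 ± 0.68 higher (adjusted p = 0.89), or 1.95 without experiment 1 and 0.41 without experiment 3. Adamts8 differed there by 2.37 ± 0.50 (adjusted p = 0.42), or 2.09 without experiment 1.

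In aorta in KO, Mmp16 was -1.49, -1.41 and -0.84 on chow and 0.34, 0.57 and -0.12 on HFD, a difference of 1.51 ± 0.85 (adjusted p = 0.53) and of 1.35 without experiment 1. These 3 HFD arrays were above the 3 chow arrays. Adamts8 differed by 2.69 ± 0.50 (adjusted p = 0.24; 2.88 without experiment 1), Timp4 by -1.57 ± 0.66 (adjusted p = 0.45; -0.87 without experiment 1) and Mmp2 by 1.36 ± 0.43 (adjusted p = 0.39; 1.32 without experiment 1). The Timp4 value in that strain rested in large part on experiment 1.

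In muscle in WT, Mmp3 was -0.81, -4.82 and -2.35 on chow and 1.00, -3.62 and -1.56 on HFD, a difference of 1.27 ± 0.74 (adjusted p = 0.55), or 1.00 without experiment 1. The experiments differed more from each other than the diets did. Timp1 differed there by 1.62 ± 0.40, or 1.80 without experiment 1, Adamts5 by 1.49 ± 0.21, or 1.61, and Mmp15 by 1.21 ± 0.20, or 1.26. In muscle in KO, Adamts2 was -0.27, -3.19 and -2.22 on chow and 0.38, -1.15 and -1.72 on HFD, a difference of 1.06 ± 0.47 (adjusted p = 0.60), or 1.27 without experiment 1 and 0.58 without experiment 2. Adamts8 differed there by 2.86 ± 1.26, or 4.01 without experiment 1 and 1.37 without experiment 2. Timp1 differed by 1.06 ± 0.40, or 1.26 without experiment 1 and 0.59 without experiment 2, and Adamts5 by 1.30 ± 0.21, or 1.41 without experiment 1. For each gene the direction was the same with and without experiment 1.

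Fibroblast markers moved with the diet too. All 11 were above 0 in both tissues, with medians of 0.57 in aorta, 1.06 in muscle and 0.77 over both, and 2 of them passed over both tissues. The 12 endothelial markers were all below 0 over both tissues (median -0.39) and in aorta (median -0.67), with a median of -0.05 in muscle and none passing, and all 6 pericyte markers were below 0 in muscle (median -0.52). With the summed fibroblast level of each array as a covariate, a setting chosen after seeing the data, the differences over both tissues were 0.85 ± 0.27 for Adamts5, 0.53 ± 0.17 for Adamts7 and 0.61 ± 0.29 for Mmp2, and none of them passed (adjusted p = 0.48, 0.476 and 0.659), when 5 of all probes did. In muscle Adamts5 then differed by 1.43 ± 0.26. Of the single-strain differences named above, 11 moved by less than the SD of their pairs and 5 moved further. Among those that moved further, the Mmp3 difference in muscle in WT went to -0.05. That of Adamts2 in muscle in KO went to 0.14 and that of Mmp16 in aorta in KO to 0.06. Ptprc, the gene of the CD45 antigen excluded by the sort, rose with HFD by 2.09 ± 0.32 over both tissues (adjusted p = 0.0173), at levels of -9.38 to -0.83, and none of the macrophage markers tested passed. In muscle 6 of 7 macrophage markers were above 0 (median 1.58), and in aorta 5 of 8 were below 0 (median -1.54). The summed fibroblast level was itself higher on HFD in every pair of both tissues, so the covariate cannot separate cell mix from a change within cells. The part of fibroblast, leukocyte and other cells' RNA in the diet differences was not tested.

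**Figure D4:**
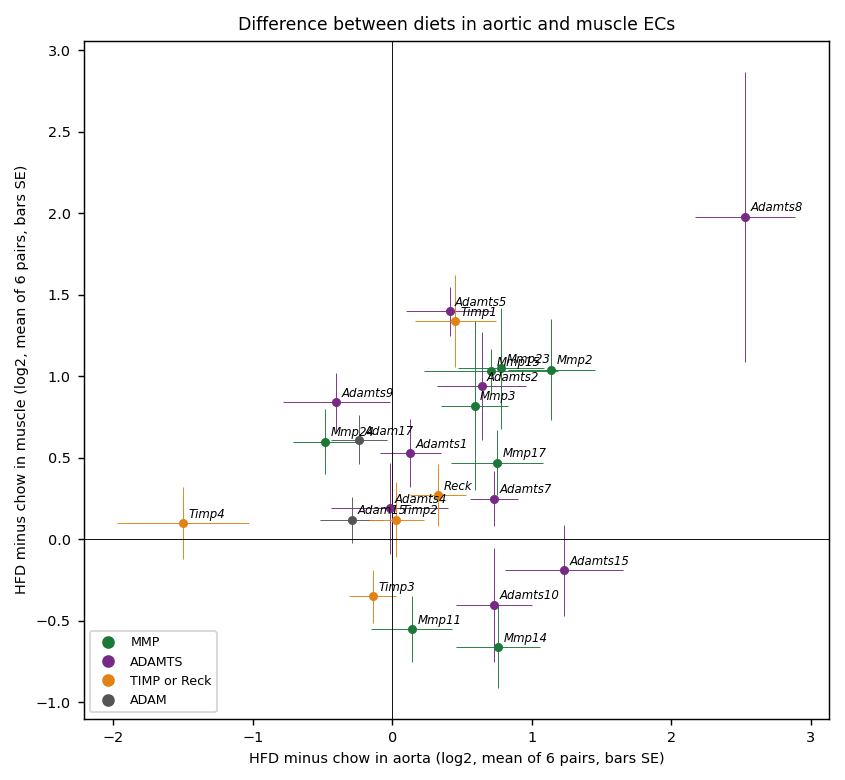
Difference between HFD and chow (log2, mean of 6 pairs, bars SE) in aorta on the horizontal axis and in muscle on the vertical axis for the 24 genes tested in both tissues. Of these, 13 lie above 0 in both tissues and 1 (Timp3) below 0 in both, and 4 lie above 0 in aorta and below 0 in muscle, among them Mmp14.

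A test of the difference between the tissues in diet response called 0 of 29 genes and 0% of all probes in limma, with 8 of 29 at an unadjusted p under 0.05 against 9.24% of all probes. Mmp14, the main surface activator of Mmp2, was higher on HFD in aorta by 0.76 ± 0.30 and lower in muscle by 0.66 on the log2 scale (HFD minus chow, -0.66 ± 0.25). Its group means in aorta were 3.53 ± 1.00 on chow and 3.95 ± 0.25 on HFD in WT (SD, n = 3) and 2.88 ± 0.44 and 3.98 ± 0.23 in KO. In muscle they were 2.00 ± 0.14 and 1.40 ± 1.07 in WT and 2.21 ± 0.35 and 1.49 ± 0.60 in KO. The difference in response, aorta minus muscle, was 1.41 ± 0.41 (adjusted p = 0.323). For Adam17 it was -0.85 ± 0.23 (adjusted p = 0.284), with group means in aorta of 1.80 ± 0.04 on chow and 1.64 ± 0.41 on HFD in WT and 1.80 ± 0.09 and 1.48 ± 0.30 in KO, and in muscle of 1.72 ± 0.06 and 2.59 ± 0.35 in WT and 1.87 ± 0.15 and 2.22 ± 0.21 in KO.

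None of the 5 inhibitors passed between diets over both tissues, and 4 of them (all but Timp2) had an unadjusted p under 0.05. The 4 group means of Timp2 lay between 6.37 and 6.46 in aorta and between 4.69 and 4.84 in muscle. Those of Timp3 lay between 5.55 and 5.80 in aorta and between 5.79 and 6.31 in muscle, and over both tissues its difference, HFD minus chow, was -0.25 ± 0.11 (adjusted p = 0.2). Those of Reck lay between 1.04 and 1.66 in aorta and between -2.01 and -1.64 in muscle, and over both tissues it differed by 0.30 ± 0.13 (adjusted p = 0.207).

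The last comparison was between the strains. No gene passed in KO minus WT in limma, 0 of 28 in aorta and 0 of 25 in muscle (0.0116% and 0% of all probes), and 1 and 2 genes had an unadjusted p under 0.05, against 3.39% and 3.27% of all probes. Timp4 was higher in KO in 6 of 6 pairs in aorta, by 1.21 ± 0.38 (adjusted p = 1), and in 6 of 6 pairs in muscle, by 0.48 ± 0.22 (adjusted p = 1). Without experiment 1 these differences were 1.16 and 0.47. Its group means on chow were 3.51 ± 0.74 in WT and 4.79 ± 0.61 in KO in aorta, and 5.88 ± 0.23 and 6.22 ± 0.13 in muscle (SD, n = 3). On HFD they were 2.08 ± 0.82 and 3.23 ± 0.62 in aorta and 5.85 ± 0.47 and 6.46 ± 0.50 in muscle. The adipocyte markers ran the same way between the strains, with 8 of 8 tested above 0 in each tissue. Their median was 0.42 in aorta and 0.36 in muscle, and none passed. Whether adipocyte RNA has a part in the Timp4 difference between strains was not tested. Adamts1, an aggrecanase that restrains vessel growth in assays, was lower in KO in 6 of 6 muscle pairs, with a difference of -0.71 ± 0.25 (adjusted p = 1), or -0.63 without experiment 1. Its muscle levels were 3.14, 3.84 and 3.27 on chow in WT and 2.28, 2.19 and 3.22 in KO, and 3.91, 4.24 and 3.26 on HFD in WT and 3.00, 3.46 and 3.24 in KO, and in experiment 3 the strains differed by under 0.1.

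A difference between strains in the diet response was called for no gene in limma, with 0 of 28 called in aorta and 0 of 25 in muscle (0% and 0% of all probes), and with 0 and 0 genes at an unadjusted p under 0.05, against 2.62% and 4.12% of all probes. With 3 experiments a group, such intervals leave wide room: for Mmp2 the difference in response in aorta was 0.44 ± 0.61, or 0.04 without experiment 1.

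The wider set of genes that work with these proteases held 48 others, such as other family members, convertases that activate the precursors, plasminogen activators and proteoglycan substrates, and 38 were tested over all arrays. Over both tissues and strains 3 rose with HFD and 1 fell, against 2.79% of all probes called. Tfpi2, a Kunitz-type protease inhibitor of the matrix, rose by 1.25 ± 0.21 (adjusted p = 0.0201, higher in 12 of 12 pairs). Papln, an ADAMTS-like matrix protein, rose by 1.97 ± 0.35 (adjusted p = 0.0236, 10 of 12 pairs) and was also the single one of 33 called in muscle (0.288% of all probes), by 2.04 ± 0.20 (adjusted p = 0.0358). Adamtsl2 rose by 1.42 ± 0.33 (adjusted p = 0.0483) and the protease Adamts18 fell by 1.04 on the log2 scale (SE 0.20, adjusted p = 0.0305, lower in 11 of 12 pairs).

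Between the tissues, 19 of these 38 genes were higher in aorta (17.9% of all probes) and 8 higher in muscle (39.3% of all probes). The convertase Pcsk5 was higher in aorta by 4.28 ± 0.24 and Pcsk6 by 1.68 ± 0.17, whereas Furin differed by -0.66 ± 0.12. The proteoglycan Vcan, the substrate of the aggrecanases above, was higher in aorta by 3.72 ± 0.22 and the clearance receptor Lrp1 by 2.88 ± 0.33. Of the partners of the sheddases, Rhbdf2, which escorts Adam17 to the surface, was higher in muscle (-1.58 ± 0.22), as were the Adam10 partners Tspan14 (-0.91), Tspan15 (-2.08) and Tspan17 (-0.78), while Tspan5 was higher in aorta (1.28). Each passed with an adjusted p of 0.00039 or below.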

How the data were processed

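Gene expression was read from 24 Agilent Whole Mouse Genome arrays in 1 colour. The authors labelled amplified RNA with Cy3, hybridised it and deposited the scanner output, per the file headers made with Feature Extraction 10.5.1.1 (the submitters' processing notes name 9.1), and its processed signal, an intensity already corrected for background, was used here. The deposited log2 table of the series equals these intensities on the log2 scale plus 1 constant per array (100% of values within 0.01) and served as an alternative scaling. The authors' analysis used GeneSpring and Acuity.

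Intensities were divided by the 75th percentile of the 43379 non-control spots of the array (2390 to 5938) and taken as log2. Outlier spots were left out and spots of a probe averaged, which gave 41174 probes, 27198 of them named through accessions in a RefSeq table of build GRCm38.p6. Between 59.5% and 75.7% of spots per array were well above background, and the number of arrays limits the precision. A probe was tested where some group had it above background on all its arrays, and the test was run with limma 3.58.1 in R 4.3.3, with Benjamini-Hochberg adjustment over all of them and a threshold of 0.05. Diet was tested with strain and experiment as a block, tissue with strain, diet and experiment as a block, and strain without a block. The labels number 3 experiments, and each of 6 slides held the 4 groups of 1 tissue and experiment, so equal numbers pair the arrays. Deviations from group means of the 12 diet pairs correlated at 0.01 to 0.45 (median 0.23), those of the 12 tissue pairs at 0.07 to 0.40 (median 0.22) and those of the 12 strain pairs, whose block was an alternative, at 0.07 to 0.58 (median 0.31). Scripts were tested on simulated data.

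The genes and lists were chosen with earlier results of these data known. Values on single arrays were given for genes that passed in a contrast of diet or strain, for up to 4 genes with the largest difference that ran the same way in all 3 experiments in each tissue and strain, for the 6 called genes with the largest tissue difference, and, as group means, for Mmp2, Mmp14, Adam17 and the inhibitors. Adamts9, Mmp15, Adam17 and Adamts1 values beyond that rule were added after their values were seen. The alternatives comprised the deposited log2 table, quantile normalization, normexp (offset 50), other filters, other blocks, each experiment left out, a t-test after the study's methods and a fibroblast covariate.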

Additional observations from a re-analysis of the deposited data

Results flagged for a closer look

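For 3 genes every array pair of one tissue moved in the direction opposite to every pair of the other tissue within a strain. In KO, Adam17 differed by -0.33 between HFD and chow in aorta and by 0.35 in muscle, so that the responses differed by -0.68. In KO, Mmp14 differed by 1.09 in aorta and by -0.71 in muscle, so that the responses differed by 1.81. In WT, Mmp24 differed by -0.38 in aorta and by 0.88 in muscle, so that the responses differed by -1.27. The difference was not tested within a single strain, and over both strains it did not pass for any of them (limma, adjusted p = 0.284, 0.323 and 0.314). These comparisons include the experiment 1 arrays on HFD, whose strain markers were intermediate, and values without experiment 1 are not given for them. The share of all probes with such opposite runs was not counted. Within single contrasts, 26.9% to 36.7% of all probes ran the same way in all 3 experiments. Mmp24 lay near background, above it on 10 aorta and 11 muscle arrays.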

How the results depend on the processing

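The aorta to muscle count stayed within 1.5 times of 24 under every alternative (17 to 24), and 17 of the 24 genes passed in every alternative in which they were tested. The 7 that did not were Adam17, Adamts1, Adamts7, Adamts8, Adamts12, Mmp11 and Timp3. With the slide as a random block (no replicate block, correlation of arrays on a slide 0.28) 17 passed, 13 higher in aorta and 4 in muscle. Quantile normalization gave 17 higher and 5 lower, with Adamts4 added.

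Diet calls depended on the setting. Over both tissues, the 3 calls became 5 with normexp and 5 with quantile normalization (Timp1 and Adamts8 added in each), 6 with only probes above background on every array, 6 with the slide as the replicate block, 0 with no filter on dim probes and 0 with the fibroblast covariate. Without a replicate block there were also 3, with Adamts8 in place of Mmp2. Among all probes the 763 calls became 0 to 1834. In muscle the 1 call became 2 (Adamts5 and Mmp15) with normexp, with quantile normalization, with only probes above background on every array, with the slide as the replicate block and with no replicate block, and 0 with no filter or with the fibroblast covariate. In aorta the 0 calls became 1 (Adamts8) with normexp, with only probes above background on every array, with the slide as the replicate block and with no replicate block. Leaving out an experiment gave 0 to 0 calls over both tissues and 0 to 0 in muscle. Fewer samples and, without the filter, more probes tested are part of those settings, and other causes were not tested. With the slide as the replicate block the strains again gave 0 calls in each tissue, with 1 gene in aorta and 3 in muscle at an unadjusted p under 0.05. The methods' t-test on the 3 ratios, at an unadjusted p under 0.05, gave 1 gene in aorta in WT, 4 in aorta in KO, 5 in muscle in WT and 4 in muscle in KO, and 0 in each after Benjamini-Hochberg adjustment. No called value changed sign. Signal over background limits Mmp9, Mmp16, Mmp19, Mmp24, Adamts3 and Adamts12, which were dim on part of the arrays.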
